A study of Mus musculus with 6 samples.

Results

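The BCL2 family genes examined here are the 10 named by symbol in a list that covers its survival and death members: Bcl2, Bcl2l1, Mcl1, Bax, Bak1, Bid, Bcl2l11, Bbc3, Pmaip1 and Bmf. All 10 were found among the 24411 genes of the files, and all 10 passed the expression filter. The cells were lineage-negative bone marrow cells of C57BL/6 mice, also sorted for c-Kit according to the methods, and RNA-seq gave 3 control (CD45.2+ Brd9fl/fl) and 3 Brd9 KO (CD45.2+ Mx1-Cre Brd9fl/fl) libraries. Both groups carried the floxed Brd9 alleles and received 3 injections of pIpC at 20 mg/kg, a double-stranded RNA mimic that switches on the interferon-driven Mx1 promoter, and cells were taken 8 weeks later. The sources disagree on timing, and place the first injection 4 weeks after birth or 4 weeks after marrow transplantation. The mice are described as 4 months old at analysis, which is older than an injection 4 weeks after birth would give. For primary mice in its blood analyses the paper states a later age at injection. The control mice carried no Cre, so effects of Cre and of BRD9 loss cannot be told apart, and Mx1-Cre is not restricted to blood cells. The study describes the 3 libraries of each group as biological replicates, although the labels do not tie them to animals.

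The BCL2 family decides whether the outer mitochondrial membrane is opened, the step that commits a cell to intrinsic apoptosis. BCL2, BCL-XL (the product of Bcl2l1) and MCL1 keep the membrane closed, the effectors BAX and BAK1 form its pores, and the BH3-only proteins BID, BIM (Bcl2l11), PUMA (Bbc3), NOXA (Pmaip1) and BMF relay stress by occupying the survival proteins or by activating the effectors. In marrow, stem and progenitor cells depend on MCL1, maturing erythroid cells and platelets on BCL-XL, and lymphocytes on BCL2. Much of the control over these proteins lies in splicing, protein turnover and phosphorylation, which gene-level RNA counts do not show.

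Brd9 fell from 49.0 ± 3.11 to 16.7 ± 3.89 CPM (counts scaled to library size, mean ± SD, n = 3 each), or 34.1% of control, with a log2 fold change of -1.56 ± 0.17 (SE, edgeR quasi-likelihood test, adjusted p = 0.00345). Kit stood at 178 to 269 CPM in the 6 libraries. Library totals were 21151031 to 28500168 expected counts. Of 12953 genes tested, 15.4% were called at an adjusted p under 0.1, 1190 higher and 809 lower, a split that became 1402 and 489 with library totals in place of TMM scaling and 1114 and 224 on log2(TPM + 1). Brd9 KO replicate 3 stood apart on the second principal component (27.0% of the variance). In it 8 neutrophil markers summed to 7589 CPM, against 1153 and 1312 CPM in Brd9 KO replicates 1 and 2 and 1670 to 3084 CPM in control. Camp, 1 of the 8, went the other way against control, at 38.0 CPM in Brd9 KO replicate 3 and 107 to 244 CPM in control. Fewer cells of a type and less RNA per cell cannot be told apart in such bulk samples. Transcripts under 1000 bases had a median log2 fold change of -0.28 and those over 8000 bases one of 0.35, and the mean transcript length weighted by TPM was 1353 to 1550 bases in control and 1623, 1695 and 1422 bases in the KO libraries. A fit that removes this trend with transcript length is given below for each family member whose call it alters.

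Bax, Mcl1, Bak1 and Bid were the most abundant of the 10 transcripts in these cells, and Pmaip1 and Bmf the least. The order over the 6 libraries is given in TPM, a level per transcript length that allows genes to be compared. Bax led with a median of 149 TPM, followed by Mcl1 (113), Bak1 (90.7), Bid (83.3), Bcl2l1 (34.3), Bcl2 (13.0), Bbc3 (12.1), Bcl2l11 (6.48), Pmaip1 (3.94) and Bmf (1.78). The ranges of Mcl1 and Bak1, of Bak1 and Bid, and of Bcl2 and Bbc3 overlapped, so these neighbours were not separated by level. Expected counts per library ran from 6169 to 7767 for Mcl1 but only from 93 to 214 for Bmf, whose values carry the largest counting error, and every member had whole-number counts in every library. On the opposite strand, exons of Bid share 628 bases with Bcl2l13, which stood at 74.8 to 104 CPM. Those of Bak1 share 614 bases with Ggnbp1 (1.38 to 3.48 CPM), and those of Bcl2 558 bases with the antisense gene D630008O14Rik. Labels and methods differ on whether the kit kept strand, which leaves these 3 values less certain, as does the 192 bases of Bax exon shared with the gene model Gm45808 on its own strand.

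The bases that precede a start site are shown for 3 members of different roles, the survival gene Bcl2l1, which was the called member, the effector Bax and the BH3-only gene Bbc3. Each is 250 bases long, written 5′ to 3′ on the gene's strand and taken from RefSeq (GRCm38.p6), with the E-box CACGTG and the GC box GGGCGG in capitals on either strand. Where the table of start-site windows holds several for a gene, the one with the highest coordinate is shown. For Bcl2l1 and Bbc3 this window lies inside the RefSeq gene span given below, so that each gene reaches further upstream than the bases shown. The windows lie at chr2:152831729-152831978 (minus strand) for Bcl2l1, chr7:45466899-45467148 (minus strand) for Bax and chr7:16310181-16310430 (plus strand) for Bbc3.
Bcl2l1: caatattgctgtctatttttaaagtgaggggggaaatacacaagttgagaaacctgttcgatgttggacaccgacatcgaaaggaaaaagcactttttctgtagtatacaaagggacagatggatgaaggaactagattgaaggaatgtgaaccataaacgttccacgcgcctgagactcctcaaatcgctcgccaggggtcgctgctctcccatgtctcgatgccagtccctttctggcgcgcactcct
Bax: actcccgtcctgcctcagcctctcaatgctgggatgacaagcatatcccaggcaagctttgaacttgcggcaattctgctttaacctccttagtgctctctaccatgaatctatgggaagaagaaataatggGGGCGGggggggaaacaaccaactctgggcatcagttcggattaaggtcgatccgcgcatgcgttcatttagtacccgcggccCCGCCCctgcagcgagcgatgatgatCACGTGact
Bbc3: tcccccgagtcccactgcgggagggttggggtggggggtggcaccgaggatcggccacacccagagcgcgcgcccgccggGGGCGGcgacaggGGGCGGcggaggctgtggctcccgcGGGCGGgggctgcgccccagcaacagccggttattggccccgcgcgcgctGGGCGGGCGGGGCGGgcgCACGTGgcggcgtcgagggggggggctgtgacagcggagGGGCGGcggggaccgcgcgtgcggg
The Bcl2l1 window is 47.6% G or C and holds neither motif, the Bax window (54.0%) holds 1 E-box and 2 GC boxes, and the Bbc3 window (81.6%) holds 1 E-box and 7 GC boxes, some of them overlapping. Among 32851 windows of the same length, 6.02% hold CACGTG and 32.7% hold GGGCGG. Of the 16 windows available for 9 members, 2 hold the E-box, 9 the GC box, 2 the FOXO motif GTAAACA (Bcl2l11 and Bbc3, 3.17% of all windows), 1 the GATA motif AGATAA (Bcl2l1, at another start, 9.99%) and 0 the STAT motif TTCNNNGAA (7.02%). Motifs were searched on both strands, and a match is a run of letters and no evidence of binding.

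Bcl2l1 was the called member of the family, and it rose. This gene, on chromosome 2 (152758732 to 152833803, GRCm38), encodes BCL-XL and its short, death-promoting splice form BCL-XS, which a gene-level count does not separate. It stood at 59.5, 43.7 and 41.7 CPM in control replicates 1 to 3 and at 80.1, 58.5 and 75.1 CPM in Brd9 KO replicates 1 to 3, the order kept for every gene below. Control replicate 1 and Brd9 KO replicate 2 overlapped, while the other 2 KO libraries lay above every control library. The log2 fold change was 0.56 ± 0.17 (1.47-fold) with an adjusted p of 0.0902 in edgeR. Leaving out control replicate 2 (adjusted p = 0.215), control replicate 3 (adjusted p = 0.222) or Brd9 KO replicate 1 (adjusted p = 0.255) ended the call, as did the stricter threshold of 0.05, and it held without the transcript-length trend (0.59 ± 0.15, adjusted p = 0.0439). In TPM the groups did not overlap, at 23.4 to 28.5 in control and 40.0 to 51.9 in KO.

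Megakaryocyte and platelet transcripts also differed between the groups. The 6 markers of that list, Itga2b, Pf4 and Vwf among them, summed to 1661, 1008 and 986 CPM in control replicates 1 to 3 and to 3169, 2428 and 2549 CPM in Brd9 KO replicates 1 to 3, and 4 of the 6 were called higher. Control replicate 1 was the highest control library and Brd9 KO replicate 1 the highest KO library for both. The erythroid markers went the other way, from 2453 to 2880 CPM in control to 1509 to 2200 CPM in KO, with 4 of 6 called lower. Of 6 progenitor markers, which summed to 10980 to 12370 CPM in control and 7090 to 7289 CPM in KO, Mpo made up most of the sum, Kit, Cd34 and Flt3 overlapped between the groups, and Gata2 (176 to 226 CPM against 443 to 570 CPM) and Myb (607 to 636 CPM against 696 to 780 CPM) lay higher in every KO library. Mast cell and basophil markers (1027 to 1355 CPM against 2073 to 2787 CPM, 5 of 6 called higher) differed between the groups as well, as did those of macrophages (38.3 to 54.2 CPM against 77.0 to 109 CPM, 6 of 6 called higher), stroma (33.8 to 50.6 CPM against 95.4 to 147 CPM, 4 of 6) and endothelium (114 to 131 CPM against 166 to 199 CPM, 4 of 5). No marker of any list was at 0 in any library. The sums of B cell markers (65.8 to 133 CPM) overlapped between the groups. So did those of T cell markers, at 5.94 to 9.09 CPM against 7.97 to 13.7 CPM (1 of 5 called higher). NK cell markers, at 18.6 to 28.3 CPM against 27.4 to 44.5 CPM (3 of 5 called higher), also overlapped. Among these, Gzma was at 1.6 to 2.0 CPM against 8.1 to 17.55 CPM. Klrk1 (9.6 to 15.6 CPM against 8.6 to 12.3 CPM) and Klrb1c (4.0 to 5.6 CPM against 2.5 to 4.7 CPM) reached lower in KO. The part of these cell types in the Bcl2l1 value was not tested.

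**Figure D1:**
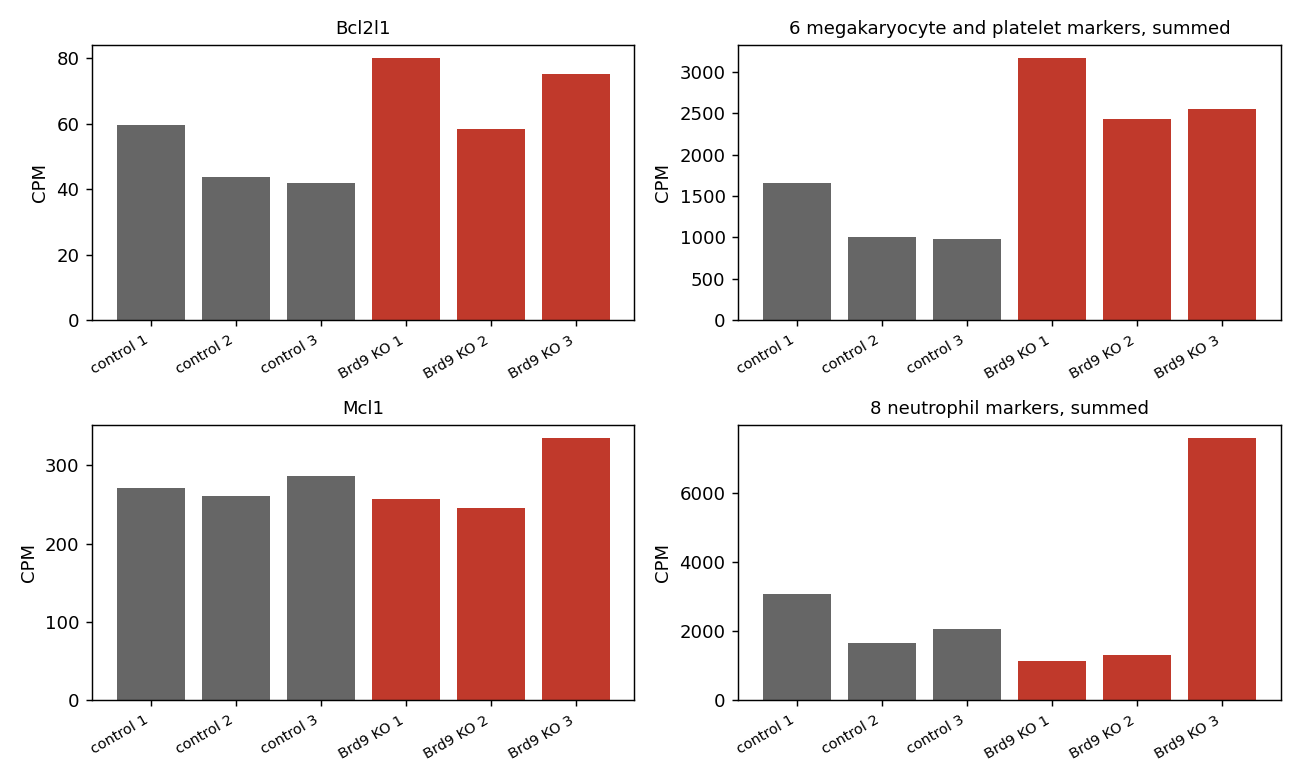
CPM per library (vertical axes) of Bcl2l1, of 6 megakaryocyte and platelet markers summed, of Mcl1 and of 8 neutrophil markers summed, in grey for control and red for KO. Bcl2l1 and the megakaryocyte sum are both highest in Brd9 KO replicate 1, and Mcl1 and the neutrophil sum are both highest in Brd9 KO replicate 3 (335 and 7589 CPM).

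The other survival genes were not called. Mcl1, on chromosome 3 (95656944 to 95663179), encodes a short-lived protein that early progenitors need. It measured 271, 260 and 286 CPM in the control libraries and 257, 246 and 335 CPM in KO, so that 2 KO libraries lay below every control library and Brd9 KO replicate 3 above them all. The log2 fold change was 0.03 ± 0.14 (adjusted p = 0.891), and -0.12 without Brd9 KO replicate 3 (adjusted p = 0.427). In TPM, by contrast, all 3 KO libraries (115, 120 and 122) lay above all 3 control libraries (88.4, 106 and 110), while on log2(TPM + 1) the difference of 0.24 was not called (adjusted p = 0.252). Brd9 KO replicate 3 is also the library with 7589 CPM of neutrophil markers, and the part of these in its levels of Mcl1, Bcl2, Bax and Bmf was not tested.

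Bcl2, the founding member, lies on chromosome 1 (106538176 to 106714290). Its levels were 69.1, 65.6 and 67.7 CPM in control and 69.1, 66.8 and 50.4 CPM in KO, with 1 low library, Brd9 KO replicate 3, and 2 that overlapped control. The log2 fold change was -0.12 ± 0.13 (adjusted p = 0.583). Bcl2 is the longest member, with a mean transcript length of 6880 bases, and without the transcript-length trend its log2 fold change was -0.38 ± 0.12 (adjusted p = 0.0695), past the threshold, where 21.9% of all tested genes were called. Without Brd9 KO replicate 3 and with the trend left in, it was 0.01.

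Neither effector gene was called with all 6 libraries. Bax, on chromosome 7 (45461695 to 45466903), is a direct target of p53. It measured 104, 80.4 and 79.7 CPM in the control libraries and 65.9, 52.2 and 82.5 CPM in KO, where Brd9 KO replicate 3 lay within the control range and the other 2 below it. The log2 fold change was -0.40 ± 0.18 (adjusted p = 0.206). Without Brd9 KO replicate 3 it was -0.58 ± 0.16 (adjusted p = 0.0426), in a fit that called 31.6% of 13124 genes. Bax has the shortest transcript of the family, 869 bases, and without the length trend the difference was -0.16 ± 0.07 (adjusted p = 0.183).

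Bak1, the effector held in check by MCL1 and BCL-XL, lies on chromosome 17 (27019812 to 27028627). Its 119, 150 and 115 CPM in control and 123, 116 and 107 CPM in KO overlapped, with a log2 fold change of -0.15 ± 0.13 (adjusted p = 0.479).

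Of the 5 BH3-only genes, Bmf and Bbc3 had positive and Bid, Bcl2l11 and Pmaip1 negative fold changes, and none was called in edgeR. Over the 7 death members the count called was 0 in edgeR, 1 at an unadjusted p under 0.05 (Bmf), 1 by DESeq2 (Bmf) and 0 by limma-voom. Over all genes, 3548 of 12953 had an unadjusted p under 0.05 in edgeR, and DESeq2 called 16.1% of 16959. Bmf, on chromosome 2 (118528757 to 118549686), encodes a sensor of detachment from the cytoskeleton. It measured 3.52, 4.01 and 5.85 CPM in the control libraries and 5.69, 6.37 and 10.3 CPM in KO, and only control replicate 3 reached into the KO range. Its log2 fold change of 0.74 ± 0.30 (adjusted p = 0.156) was the largest of the 10 in size, and DESeq2 gave an adjusted p of 0.0965. Without Brd9 KO replicate 3 it was 0.43 ± 0.25 (adjusted p = 0.238).

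Bbc3, on chromosome 7 (16308398 to 16318334), encodes PUMA, which p53 and FOXO factors induce and which binds every survival member. It measured 18.4, 13.2 and 15.3 CPM in the control libraries and 21.9, 18.1 and 19.3 CPM in KO, and control replicate 1 lay just above the lowest KO library. The log2 fold change was 0.34 ± 0.16 (adjusted p = 0.204), and without the transcript-length trend it was 0.42 ± 0.13 (adjusted p = 0.0655), past the threshold.

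Bid, on chromosome 6 (120893119 to 120917062), links death receptors to mitochondria once caspase 8 cleaves its product. It measured 118, 109 and 108 CPM in the control libraries and 98.3, 95.3 and 103 CPM in KO. Every KO library lay below every control library, for Bid alone of the 10 members, where 33.5% of tested genes had groups that did not overlap in CPM. The log2 fold change was -0.18 ± 0.09 (adjusted p = 0.256). In TPM the groups overlapped, and on log2(TPM + 1) the difference was 0.04.

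Bcl2l11, on chromosome 2 (128126038 to 128162547), encodes BIM, a regulator of lymphocyte numbers. It measured 18.3, 21.8 and 25.5 CPM in the control libraries and 17.7, 20.4 and 21.6 CPM in KO, with overlap and a log2 fold change of -0.14 ± 0.15 (adjusted p = 0.592). Pmaip1, on chromosome 18, encodes NOXA, which binds MCL1. It measured 8.82, 8.18 and 7.80 CPM in the control libraries and 6.83, 5.64 and 7.81 CPM in KO, with a log2 fold change of -0.29 ± 0.18 (adjusted p = 0.32).

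**Figure D2:**
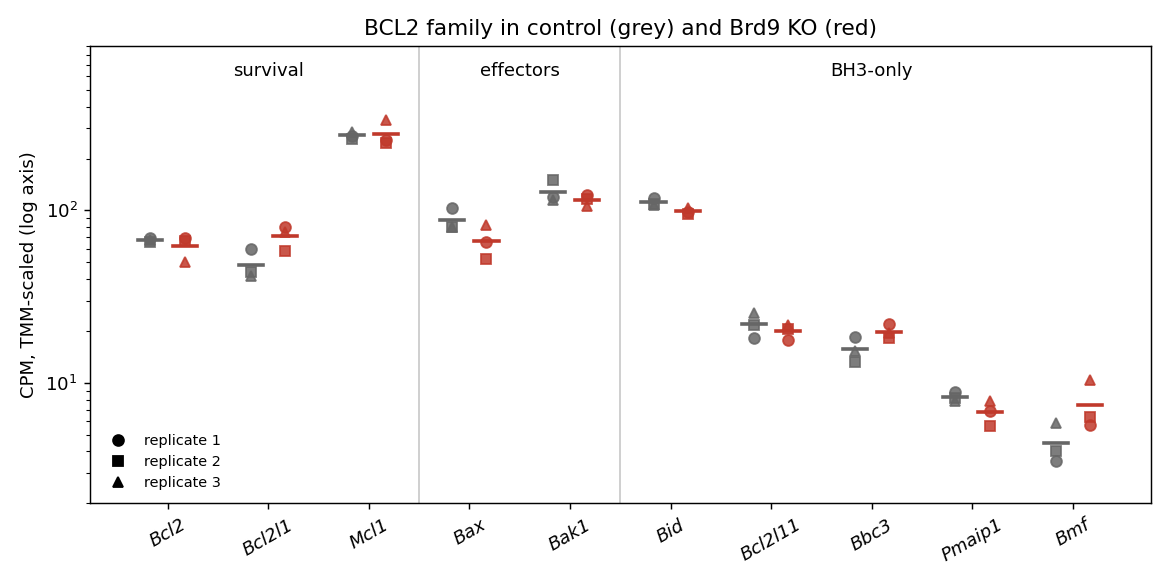
TMM-scaled CPM (vertical log axis) of the 10 members (horizontal) by library, control in grey and KO in red, with a symbol for each replicate number and a line at each group mean of 3 libraries. For Bcl2l1 the highest control point lies just above the lowest KO point and the other KO points above both, the KO points of Bid lie wholly below the control points, and Brd9 KO replicate 3 is the highest point of Mcl1 and Bmf and the lowest of Bcl2.

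In all, 1 of 10 members was called, in the direction of higher, beside 15.4% of all tested genes (9.19% higher and 6.25% lower). In TPM, 5 of the 10 had groups that did not overlap, Bcl2l1, Mcl1, Bbc3 and Bmf higher and Bax lower, beside 28.0% of all tested genes (22.0% higher and 5.96% lower). Of the members, 4 had positive and 6 negative log2 fold changes with a median of -0.13 (of the 6, Bcl2, Bak1, Bid and Bcl2l11 lay above 0 on log2(TPM + 1)), against a median of 0.02 over all genes. The 3 survival members had a median of 0.03 and the 7 death members one of -0.15.

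**Figure D3:**
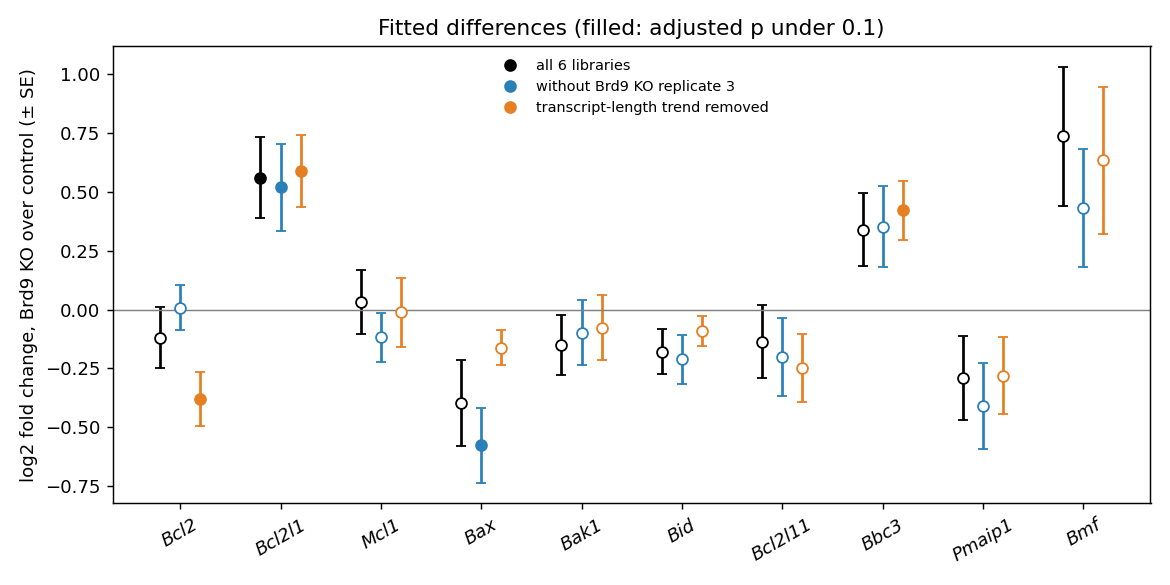
KO against control as log2 fold change with its SE (vertical axis) for each member (horizontal axis), from all 6 libraries (black), without Brd9 KO replicate 3 (blue) and with the transcript-length trend removed (orange), where filled points passed an adjusted p of 0.1. Bcl2l1 is filled in all 3 fits (0.56, 0.52 and 0.59), Bax only without Brd9 KO replicate 3, and Bcl2 and Bbc3 only with the trend removed.

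Survival and death transcripts were next set against each other within each library. The 3 survival members summed to 128, 145 and 146 TPM in control and to 182, 178 and 171 TPM in KO, and the 7 death members to 332, 382 and 337 TPM in control and to 362, 351 and 318 TPM in KO. In TPM the survival sum lay higher in every KO library, while the death sum overlapped between the groups. Over all tested genes, groups did not overlap in TPM for 22.0% with KO higher and for 5.96% with KO lower. In CPM the survival sum overlapped instead, and the death sum lay lower in every KO library. Which side differed thus depended on the unit. The log2 ratio of survival to death sum in TPM was -1.33 ± 0.11 (SD) in control and -0.95 ± 0.06 in KO, without overlap. The difference was 0.37 in TPM and 0.26 in CPM. With the transcript-length trend removed from TPM the groups overlapped and the difference was 0.17. Mcl1 made up 69.0% to 75.2% of the survival sum in control and 63.2% to 71.2% in KO, and Bcl2l1 16.0% to 22.3% and 23.3% to 28.5%. These sums weigh transcripts, not proteins, and as scores over chosen genes they were not tested.

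Among the survival genes, Bcl2l1 stood higher relative to Bcl2 in every KO library than in any control library. The log2 ratio of Bcl2l1 to Bcl2, in TPM, was 1.36, 1.01 and 0.85 in control and 1.79, 1.41 and 2.10 in KO. Control replicate 1 and Brd9 KO replicate 2 lay close together, 1 on each side of the gap. The highest ratio, 2.10, was that of Brd9 KO replicate 3. Bcl2 was lower there (9.35 TPM) than in any other library, and Bcl2l1 lower (39.97 TPM) than in any other KO library. With the transcript-length trend removed the values were 1.01, 1.02 and 0.79 in control and 1.95, 1.75 and 2.0 in KO, farther apart than before. The log2 ratio of Bcl2l1 to Bax was -2.54, -2.63 and -2.69 in control and -1.49, -1.60 and -1.89 in KO, and without the trend -2.67 to -2.22 in control and -1.91 to -1.66 in KO. Both ratios include Bcl2l1, the called member, so that they are not separate observations.

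**Figure D4:**
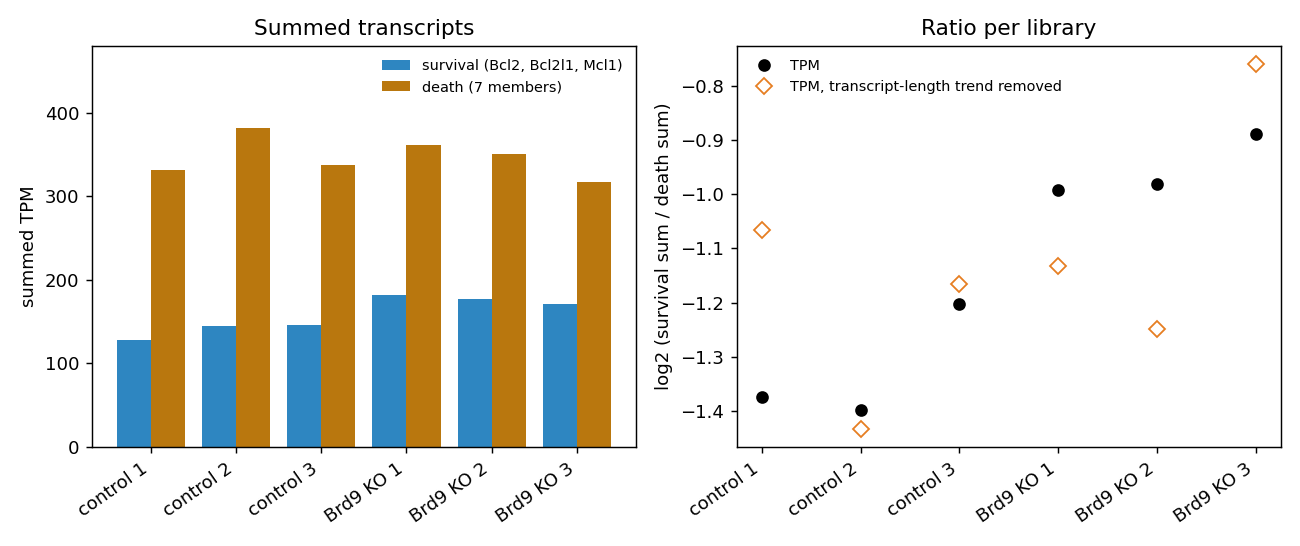
Left, TPM summed over the 3 survival members (blue) and the 7 death members (brown) in each library. Right, the log2 ratio of the sums in TPM (black circles), from -1.40 to -1.20 in control and from -0.99 to -0.89 in KO, and with the transcript-length trend removed (orange diamonds), where the groups overlap.

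Of the 10 genes, 3 had several transcripts in the files, and for these the mean transcript length, which RSEM weights by each transcript's estimated share, reports on the mix. For Bcl2l11, with 5 transcripts, it was 4221, 4444 and 4386 bases in control and 4524, 4497 and 4451 bases in KO, all higher than control. An exact two-sided permutation test gave p = 0.1, the smallest that 3 against 3 libraries can give, and 0.3 after adjustment over the 3 genes. For Bcl2l1 (2445 ± 15.3 and 2460 ± 9.4 bases, exact permutation p = 0.3) and Bcl2 (6876 ± 91.2 and 6883 ± 193 bases, exact permutation p = 1.0) the groups overlapped. The mean transcript length over all genes was also highest in 2 of the 3 KO libraries, and its part in these values was not tested.

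Further cell death genes were taken from 5 lists. Of 67 genes listed, 61 were tested, and 3 were higher, 7 lower and 51 not called, or 16.4% called beside the background of 15.4%. Their median log2 fold change was -0.09. The other 6 were below the expression filter. Without the transcript-length trend 15 of the 61 were called, beside 21.9% of all tested genes in that fit. Rps27l was lost and Bcl2l13, Bik, Btrc, Fas, Xiap and Zmat3 were gained.

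Downstream of the mitochondrion, the transcripts of the execution machinery that edgeR called with all 6 libraries were lower. Of 16 genes of the apoptosome and caspases, 4 were lower and 12 not called, with a median of -0.17. Over all tested genes, 6.25% were called lower. Of the 16, 5 had positive and 11 negative log2 fold changes. Among the positive ones were Apaf1 (0.33, edgeR adjusted p = 0.111) and Xiap (0.45, edgeR adjusted p = 0.107), which DESeq2 called. Cycs, the cytochrome c that leaves through BAX and BAK1 pores and assembles the apoptosome, fell from 310 ± 39.7 to 218 ± 19.2 CPM (-0.51 ± 0.13 on the log2 scale, adjusted p = 0.0513). The intermembrane nuclease gene Endog (-0.68 ± 0.18, adjusted p = 0.0627) and the protease gene Htra2 (-0.36 ± 0.12, adjusted p = 0.0991) fell as well. In CPM the groups did not overlap for these 3 genes, as for 33.5% of all tested genes, and in TPM they overlapped for Cycs and Htra2. Cycs and Endog each lost their call without control replicate 1 (adjusted p = 0.143 and 0.158), control replicate 2 (adjusted p = 0.147 and 0.165), Brd9 KO replicate 1 (adjusted p = 0.14 and 0.151) or Brd9 KO replicate 2 (adjusted p = 0.164 and 0.167), and Htra2 lost its call without any library except Brd9 KO replicate 3 (adjusted p = 0.138 to 0.286). On log2(TPM + 1) Cycs (adjusted p = 0.243), Endog (adjusted p = 0.174) and Htra2 (adjusted p = 0.438) were not called, nor was Htra2 with library totals (adjusted p = 0.136), no filter (adjusted p = 0.107) or the replicate block (adjusted p = 0.123).

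In the death receptor pathway, 2 of 9 genes were higher and 7 not called (median 0.33). Over all tested genes, 9.19% were called higher. Fadd, the adaptor that recruits caspase 8, rose from 30.7 ± 1.0 to 38.6 ± 1.26 CPM (0.33 ± 0.09, adjusted p = 0.0728). Cflar, which encodes the caspase 8 inhibitor c-FLIP, rose from 60.4 ± 6.68 to 79.5 ± 7.90 CPM (0.40 ± 0.12, adjusted p = 0.0897). Omitting any 1 library other than Brd9 KO replicate 3 ended both calls (adjusted p = 0.126 to 0.226 for Fadd and 0.123 to 0.267 for Cflar), as did no filter (adjusted p = 0.108 and 0.103), the replicate block (adjusted p = 0.105 and 0.104) and log2(TPM + 1) (adjusted p = 0.11 and 0.202).

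Of 15 tested genes of p53 and its targets, 1 was higher, 2 were lower and 12 were not called (median -0.09). Over all tested genes, 9.19% were called higher and 6.25% lower. Trp53 itself fell from 219 ± 22.2 to 165 ± 5.97 CPM (-0.41 ± 0.11, adjusted p = 0.0582). Rps27l, a ribosomal protein paralog induced by p53, fell by 0.57 on the log2 scale (SE 0.16, adjusted p = 0.0761), has a transcript of only 464 bases and was not called without the transcript-length trend (adjusted p = 0.248). Trp53 lost its call when replicate 1 or 2 of either group was left out (adjusted p = 0.134 to 0.188), with library totals (-0.32, adjusted p = 0.115) and on log2(TPM + 1) (-0.19, adjusted p = 0.449), and Rps27l without any library except Brd9 KO replicate 3 (adjusted p = 0.118 to 0.205). Perp, a membrane protein gene of desmosomes, rose from 2.95 ± 0.17 to 12.4 ± 2.92 CPM (2.06 ± 0.21, adjusted p = 0.00323) and was called in every alternative. Bax, Bbc3 and Pmaip1, the p53 targets within the family, stood at -0.40, 0.34 and -0.29.

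Of 12 tested regulators of family members, 1 was lower. Over all tested genes, edgeR called 9.19% higher and 6.25% lower. Myc, whose product can lower survival gene transcripts and raise Bcl2l11, fell from 294 ± 15.7 to 204 ± 17.4 CPM (-0.52 ± 0.11, adjusted p = 0.028), a call that ended without control replicate 2 (adjusted p = 0.101) or Brd9 KO replicate 1 (adjusted p = 0.116) and on log2(TPM + 1) (-0.31, adjusted p = 0.322) or log2(TPM + 0.1) (-0.31, adjusted p = 0.324). The other 11 were not called (list median 0.03). Of 11 tested relatives of the BCL2 family outside the 10, edgeR called 0, with 1 at an unadjusted p under 0.05 and 0 by DESeq2 or limma-voom, while Bik and Bcl2l13 were called without the transcript-length trend, Bik on log2(TPM + 1), and Bcl2a1b and Bcl2l12 without Brd9 KO replicate 3. Named for their mean TPM over the 6 libraries, which Bcl2l12 nearly matched, were Bad, a BH3-only gene (-0.07 ± 0.16, adjusted p = 0.79), and Bnip3l, a mitophagy receptor gene (0.05 ± 0.10, adjusted p = 0.791).

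**Figure D5:**
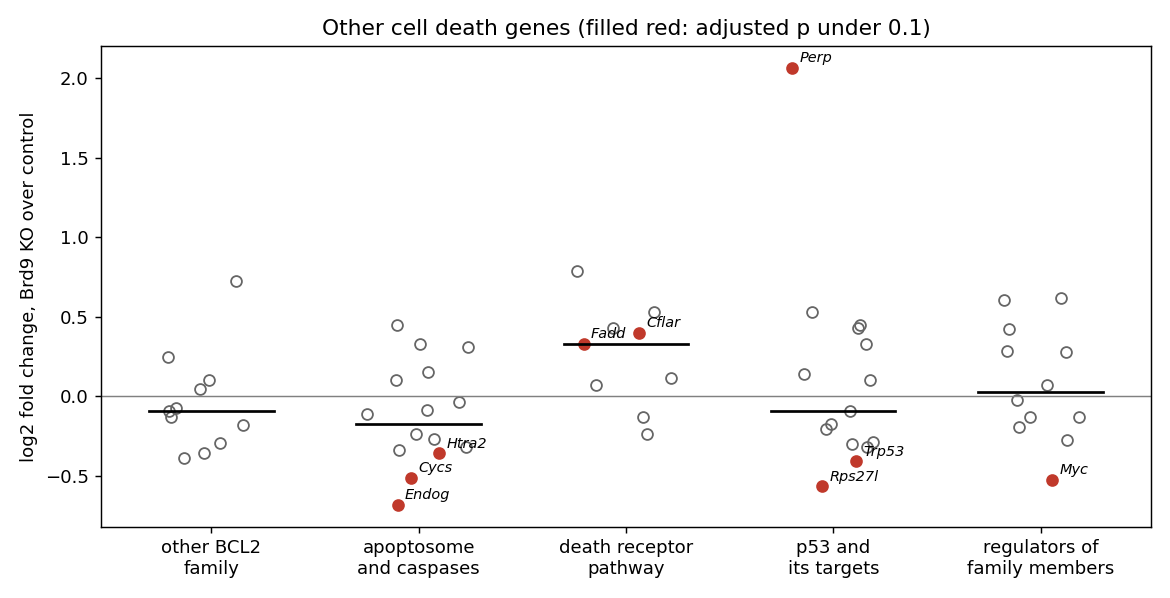
KO against control as log2 fold change (vertical axis) for the tested genes of 5 cell death lists (horizontal axis), 1 point per gene and list, with a line at the median of all tested genes of each list and 1 called gene left out of the points. Filled red points are the other called genes, of which Perp (2.06) lies highest and Endog (-0.68) lowest.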

How the data were processed

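RNA-seq of poly(A)-selected RNA was analysed for 3 control and 3 Brd9 KO libraries, grouped by their titles. The authors ran nf-core/rnaseq with STAR and RSEM on mm10, as their methods state. The deposited files hold RSEM's expected count per gene, the TPM that the authors' RSEM run scaled by transcript length, and, per the file headers, a mean transcript length in bases. FPKM were not used here.

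Expected counts were rounded, filtered with filterByExpr, scaled by TMM and compared with edgeR 4.0.16 in R 4.3.3 (quasi-likelihood test, no covariate, Benjamini-Hochberg over all genes tested, called under 0.1, the study's threshold). Standard errors were taken as the fold change (log2) over the square root of F. No correction was made over the members alone. DESeq2 1.42.0, limma-voom and limma 3.58.1 on log2(TPM + 1) or log2(TPM + 0.1) were alternatives, as were library totals, RLE factors, no filter, a threshold of 0.05, a replicate block and leaving out each library. The study's DESeq2 with independent hypothesis weighting was not run. Removal of the trend of log2 CPM on transcript length (loess per library, as edgeR offsets) was chosen after seeing the data.

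The members and lists were chosen with earlier results of these data known. Named genes are Brd9, the 10 members and, per list, up to 4 called genes, ranked by p, or the 2 of highest mean TPM in a list without calls, of which 1 is not reported here. Counts of libraries within a group differed by more than sampling error (10.6 to 80.2 chi-square units per degree of freedom), and all were kept separate. Depth limits precision most for Bmf. The procedure was tested on simulated counts. Positions and start-site windows are from RefSeq on GRCm38.p6, the assembly of mm10, in which all 10 members were found and 9 have windows shown or searched, and overlapping exons are from GENCODE M21.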

Additional observations from a re-analysis of the deposited data

How the results depend on the processing

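Bcl2l1 stayed positive under all 16 alternatives (0.46 to 0.77 on the log2 scale, adjusted p 0.0257 to 0.255) and kept its call in 12. Pmaip1, Bax, Bbc3 and Bmf also kept their direction in all 16. The count of members called was 0 at a threshold of 0.05, 2 by DESeq2 (Bcl2l1 and Bmf), 3 without the transcript-length trend (Bcl2l1, Bcl2 and Bbc3), and 0 to 2 with 1 library left out. The count of other cell death genes called was 3 at the threshold of 0.05 and 3 on log2(TPM + 1) or log2(TPM + 0.1), and 2 to 22 with 1 library left out, the 22 without Brd9 KO replicate 3. Over all genes it was 1015 at the threshold of 0.05 and 641 (without Brd9 KO replicate 1) to 4150 (without Brd9 KO replicate 3). The last is 31.6% of the genes tested in that fit, and without the transcript-length trend 21.9% of all tested genes were called. Some uncalled differences turned sign. On log2(TPM + 1) and log2(TPM + 0.1), where the median of all genes lay at 0.182 and 0.221, Bcl2 was 0.077 and 0.080, Bak1 0.073 and 0.074, Bid 0.038 and 0.038, Bcl2l11 0.031 and 0.038, and Bad 0.175 and 0.177. With 1 library left out, Bcl2 ran from -0.198 to 0.008 (without Brd9 KO replicate 3), Mcl1 from -0.118 (without Brd9 KO replicate 3) to 0.117, with -0.001 without control replicate 2, Bad from -0.196 to 0.064 (without control replicate 1), with 0.023 without Brd9 KO replicate 2, and Bnip3l from -0.009 (without control replicate 1) to 0.108. Mcl1 was -0.012 and Bad 0.149 without the length trend, and Bad 0.014 with library totals. The difference in the log2 ratio of survival to death sums was 0.49 without the most abundant member of each side (Mcl1 and Bax), 0.26 in CPM, 0.17 without the length trend, and 0.33 to 0.43 with 1 library left out. The cause of these differences was not tested.

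The titles number the libraries 1 to 3 in both groups. Same-numbered libraries deviated together only for replicate 2 (r = -0.09, 0.47 and 0.02 across genes for replicates 1 to 3). Control replicate 1 and Brd9 KO replicate 3, of unlike number, gave r = 0.38, and the numbers were not taken as pairs. With the replicate block 2 members were called, Bcl2l1 (adjusted p = 0.0422) and Bmf (adjusted p = 0.0544), and 2077 genes in all.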
